A study of Mus musculus with 30 samples.

Results

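The 8 genes described here are Vamp1 and 7 partners in synaptic vesicle release (Vamp2, Vamp3, Vamp4, Snap25, Stx1a, Syt1 and Syt2), and all 8 were found by symbol among the 21412 genes of the deposited hippocampus RNA table. Vamp1 was chosen by its lower RNA level in HD than in Ctr mice of these same libraries, and the other 7 genes were taken with it for their role. The HD against Ctr values of the 8 genes are therefore given as a description, without a test.

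RNA was sequenced from the hippocampus of 30 male BALB/c mice, 5 in each of 6 groups. Ctr mice received feed without added methylmercury (MeHg), and LD and HD mice feed with 0.28 mg and 5 mg mercury per kg as MeHg, for 11 weeks from an arrival age of 2 to 3 weeks and 5 days of acclimatization. Se_Ctr, Se_LD and Se_HD mice were given dietary selenium-methionine, alone or with the low or the high dose of mercury, and the selenium dose, the mercury doses in numbers, age and duration of these groups are not given in the sources used here. Each library is named here by its number from 1 to 30, and the groups alternate along these numbers. The libraries held 5768208 to 11510521 reads on genes, with a median of 9351470. The authors divided the counts by one size factor per library, and these normalized read counts are the unit of all levels below. Markers of hippocampal excitatory neurons were detected for 8 of 8 genes, and their summed level was between 31980 (HD library 21) and 69793 (Se_Ctr library 28) normalized counts. In bulk tissue, fewer cells of a type and less RNA per cell cannot be told apart.

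A synaptic vesicle fuses with the plasma membrane when a SNARE protein of the vesicle, a VAMP or synaptobrevin, zips together with Stx1a (syntaxin) and Snap25 on the plasma membrane. Synaptotagmins of the vesicle bind calcium and time this step to the action potential. Vamp2 and Syt1 are the forms most used by forebrain neurons, whereas Vamp1 and Syt2 are best known from brainstem, spinal cord and fast inhibitory neurons, among them the parvalbumin cells of the hippocampus. Mice or humans that lack Vamp1 have defects of neuromuscular transmission.

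Vamp1, Vamp2 and Vamp3 are close relatives, so it matters whether their reads can be told apart. The third coding exon, which encodes most of the SNARE motif, is 159 bases long in all 3 genes. It is shown 5′ to 3′ on the coding strand of build NCBIM37, with capitals at the bases that differ from Vamp1. The Vamp1 exon is chr6:125168929-125169087 on the plus strand, the Vamp2 exon chr11:68903233-68903391 on the plus strand and the Vamp3 exon chr4:150425026-150425184 on the minus strand.
Vamp1: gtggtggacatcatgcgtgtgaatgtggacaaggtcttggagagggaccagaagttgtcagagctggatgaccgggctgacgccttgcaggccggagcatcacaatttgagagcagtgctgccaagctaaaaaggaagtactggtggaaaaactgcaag
Vamp2: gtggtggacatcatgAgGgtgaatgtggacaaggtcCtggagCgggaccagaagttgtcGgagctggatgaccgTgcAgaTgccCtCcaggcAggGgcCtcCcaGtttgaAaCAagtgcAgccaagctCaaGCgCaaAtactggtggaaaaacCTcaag
Vamp3: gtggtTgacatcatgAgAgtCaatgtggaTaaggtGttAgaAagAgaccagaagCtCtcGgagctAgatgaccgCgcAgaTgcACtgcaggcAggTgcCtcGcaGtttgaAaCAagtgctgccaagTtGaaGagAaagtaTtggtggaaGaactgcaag
Vamp2 differed from Vamp1 at 26 of the 159 bases (83.6% identity) and Vamp3 at 32 (79.9% identity). Over whole annotated coding transcripts, the longest identical run was 18 bases between Vamp1 and Vamp2, 12 between Vamp1 and Vamp3, 13 between Vamp1 and Vamp4 and 26 between Syt1 and Syt2. In none of the 7 pairs compared did 2 transcripts share a window of 75 bases, so a read of that length from one gene does not match the other without mismatches.

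Vamp1 (ENSMUSG00000030337) lies on chromosome 6 from 125165569 to 125194561, and Tapbpl and Cd27 overlap it on the opposite strand without sharing an exon base. Levels of different genes were compared per kb of exon. Over the 30 mice the order of mean normalized counts per kb was Snap25 (3890), Syt1 (2007), Vamp2 (2001), Stx1a (246), Vamp4 (222), Vamp1 (138), Vamp3 (103) and Syt2 (49.5). Vamp1 and Syt2 were thus the lower members of their own pairs in this tissue.

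Vamp1 was lowest in the mice on the high dose of mercury, both without and with selenium. In Ctr mice it had 1738, 1277, 1176, 1271 and 1241 normalized counts in libraries 1, 7, 13, 19 and 25. In HD mice it had 987, 943, 989, 776 and 1018 in libraries 3, 9, 15, 21 and 27. The 5 HD mice were each lower than the lowest Ctr mouse, and library 1 stood above the other Ctr mice while library 21 was the lowest of all 30. Both libraries also stood apart in markers of neighbouring tissue. The summed level of 7 striatum markers was 1716 normalized counts in library 21 and 569 to 808 in the other HD mice, and that of 7 thalamus markers was 2363 in library 1 and 1298 to 1713 in the other Ctr mice. The part of this tissue in the Vamp1 values was not tested. The means were 943 ± 96.8 (SD, n = 5) in HD and 1340 ± 226 (SD, n = 5) in Ctr mice, a difference of -0.50 (SE 0.11, 95% interval -0.72 to -0.27) on the scale of log2(normalized count + 1). It was -0.40 without library 1 and -0.43 without library 21. All exposed mice below all controls was a pattern of 147 genes in this contrast, or 0.734% of the 20031 tested, and nothing is read from it for Vamp1 because this contrast chose it.

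The selenium groups hold the same measurement in 10 other mice. Vamp1 had 1204, 1233, 1202, 1285 and 1263 normalized counts in Se_Ctr libraries 4, 10, 16, 22 and 28. It had 940, 1086, 1124, 994 and 1061 in Se_HD libraries 6, 12, 18, 24 and 30. Again all 5 mice on the high dose lay below all 5 controls, and the Se_Ctr mice were within a narrow range. The means were 1041 ± 73.7 (SD, n = 5) and 1237 ± 36.2 (SD, n = 5), a log2 difference of -0.25 (SE 0.08, 95% interval -0.42 to -0.08). The exact two-sided permutation test gave p = 0.00794, the smallest that 5 mice against 5 allow, and the unadjusted p of limma's moderated test was 0.00617. The difference did not pass adjustment over all 19679 genes (limma, adjusted p = 1.0), where 0 genes passed. Of the 20002 genes tested on recovered reads, 0 passed in edgeR and 4 in DESeq2. An unadjusted p under 0.05 was given to 825 genes (4.19%) by limma, to 856 by edgeR and to 617 by DESeq2. All Se_HD mice lay below all Se_Ctr mice for 63 genes, or 0.32% of those tested. Among the 145 genes with all HD mice below all Ctr mice that were also tested in the selenium groups, 3 (2.07%) had the same pattern there, namely Kif5a, Vamp1 and Fkbp1b. Kif5a encodes a neuronal kinesin heavy chain and Fkbp1b a protein that binds calcium release channels, and both were named after their values were seen. The count was 3 without Ctr library 1 and 4 without HD library 21, and Vamp1 was among the genes each time.

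The difference between high dose and control in Vamp1 was 0.25 less negative with selenium than without (SE 0.14, 95% interval -0.03 to 0.53, limma over 30 libraries). The HD contrast that chose the gene enters this difference, which is therefore a description without a p, and whether the high dose was the same in both diets is not given in the sources used here.

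**Figure D1:**
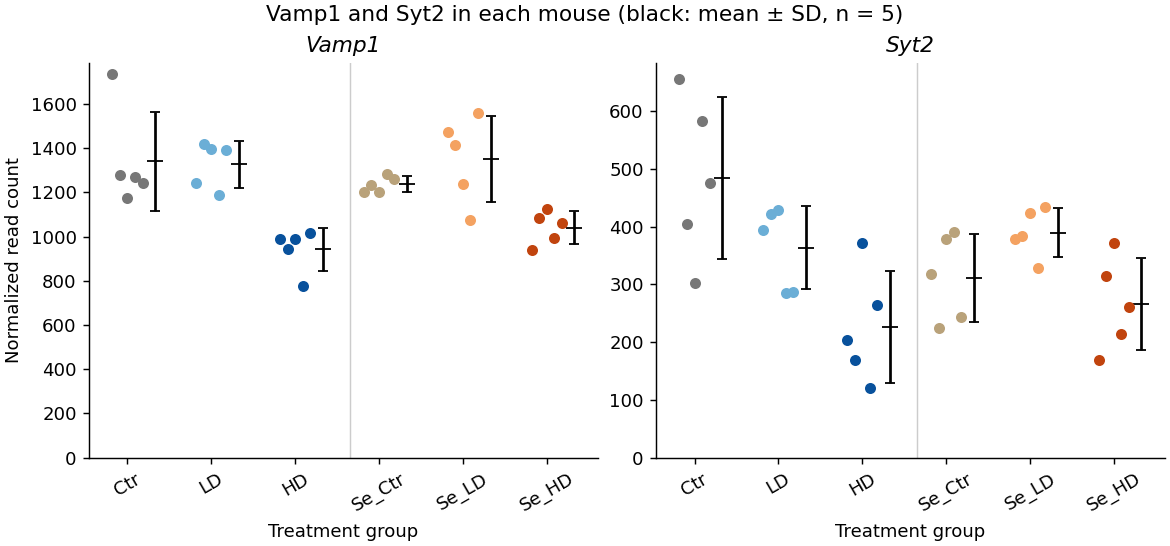
Normalized read count (vertical axis) of Vamp1 and of Syt2 in each mouse of the 6 treatment groups (horizontal axis), with each point 1 mouse and the black bar the mean ± SD of 5 mice. For Vamp1 the HD mice lie between 776 and 1018 below all Ctr mice and the Se_HD mice between 940 and 1124 below all Se_Ctr mice, whereas the HD and Ctr mice overlap for Syt2.

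At the low dose Vamp1 did not stand below the controls. The LD mice had 1242, 1420, 1398, 1187 and 1390 normalized counts (libraries 2, 8, 14, 20 and 26), all within the range of the Ctr mice. The log2 difference was 0.00 to 2 decimals (SE 0.11, 95% interval -0.23 to 0.22, limma adjusted p = 0.999 over all genes, exact permutation p = 1.0). This contrast uses the same Ctr mice as the HD contrast. In LD against Ctr, 603 genes (3.01%) had an unadjusted limma p under 0.05, and 0 passed adjustment in limma, edgeR (555 unadjusted) and DESeq2 (395 unadjusted).

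Among the selenium groups, the low-dose mice spread most widely. Se_LD libraries 5, 11, 17, 23 and 29 had 1474, 1416, 1236, 1077 and 1558 normalized counts of Vamp1, with 3 mice above and 1 below all Se_Ctr mice. The log2 difference from Se_Ctr was 0.12 (SE 0.08, 95% interval -0.06 to 0.29, limma adjusted p = 1.0, exact permutation p = 0.238). The 652 genes with an unadjusted limma p under 0.05 made up 3.31% of those tested, and 0 passed adjustment in limma, edgeR (683 unadjusted) and DESeq2 (492 unadjusted). Thalamus markers were high in 2 of these mice, with sums over 7 genes of 3774 in library 11 and 3909 in library 29 against 1309 to 2034 in Se_Ctr mice. Library 5, with more Vamp1 (1474) than library 11 (1416), had a thalamus sum of 1616, within the Se_Ctr range. The highest sum of the 30 mice, 4174, was in LD library 8, which was also the highest LD mouse for Vamp1 (1420). Of these markers, 6 of 7 had a positive difference with an unadjusted limma p under 0.05, with log2 differences from 0.46 for Rora to 1.00 for Slc17a6, and the seventh, Prkcd, had 0.57 (unadjusted p = 0.0959). The part of the thalamus in the LD and Se_LD values was not tested.

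Selenium alone gave 1237 against 1340 normalized counts of Vamp1, a log2 difference between Se_Ctr and Ctr of -0.10 (SE 0.10, 95% interval -0.30 to 0.10, limma adjusted p = 1.0, exact permutation p = 0.444), and -0.004 without Ctr library 1. In this contrast 855 of 21383 genes (4.0%) had an unadjusted limma p under 0.05, and 0 passed adjustment in limma and edgeR (931 unadjusted). Ordered by mean, the groups ran Se_LD (1352), Ctr (1340), LD (1328), Se_Ctr (1237), Se_HD (1041) and HD (943). Neighbours among the first 4 groups differed by less than the larger of their SDs, whereas the steps from Se_Ctr to Se_HD and from Se_HD to HD exceeded the larger SD of the 2 groups.

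Among the other vesicle SNAREs, Vamp2, the main synaptobrevin of hippocampal synapses, had 8780, 7468, 6243, 7439 and 8621 normalized counts in Ctr mice and 6847, 6930, 6631, 4942 and 7141 in HD mice. The groups overlapped, and library 21 stood far below the other HD mice. The log2 difference was -0.25 (SE 0.13, 95% interval -0.51 to 0.02), and -0.15 without library 21. In Se_HD mice Vamp2 had 7552 ± 372 (SD, n = 5) normalized counts against 8222 ± 857 (SD, n = 5) in Se_Ctr mice, a log2 difference of -0.12 (SE 0.09, exact permutation p = 0.167). It was 0.10 in LD against Ctr (exact permutation p = 0.429) and -0.13 in Se_LD against Se_Ctr (exact permutation p = 0.238), and none of these 3 differences passed limma's adjustment. Vamp3, the cellubrevin of endosomal recycling in most cell types, had 315 ± 46.2 (SD, n = 5) normalized counts in HD and 297 ± 28.7 (SD, n = 5) in Ctr mice. In Se_HD it had 299 ± 22.3 (SD, n = 5) against 297 ± 24.0 (SD, n = 5) in Se_Ctr mice, so its means differed by less than the spread between mice in both diets. Vamp4, a SNARE of the trans-Golgi network and endosomes, had 999 ± 105 (SD, n = 5) in HD mice, 1051 ± 104 (SD, n = 5) in Ctr mice, and 991 ± 24.2 (SD, n = 5) in Se_HD against 1019 ± 21.7 (SD, n = 5) in Se_Ctr mice. The 95% interval of its Se_HD difference was -0.15 to 0.07 on the log2 scale, and that of Vamp3 was -0.15 to 0.17.

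Snap25, the palmitoylated SNARE of the presynaptic membrane and the highest member per kb, had 24793 ± 4952 (SD, n = 5) normalized counts in HD and 26222 ± 2266 (SD, n = 5) in Ctr mice. Its HD mice ranged from 18178 in library 21 to 31223 in library 15, on both sides of the Ctr range of 23141 to 29220. In Se_HD against Se_Ctr mice the log2 difference of Snap25 was -0.06 (SE 0.10, 95% interval -0.26 to 0.15, exact permutation p = 0.794). Stx1a, the syntaxin of the fusion complex, had a mean of 673 ± 108 (SD, n = 5) in HD mice, and of 643 ± 62.2 (SD, n = 5) in Ctr mice. Its Se_HD difference was 0.06 (SE 0.11, 95% interval -0.17 to 0.29, exact permutation p = 0.619). The plasma membrane SNAREs thus overlapped between dose groups in both diets.

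**Figure D2:**
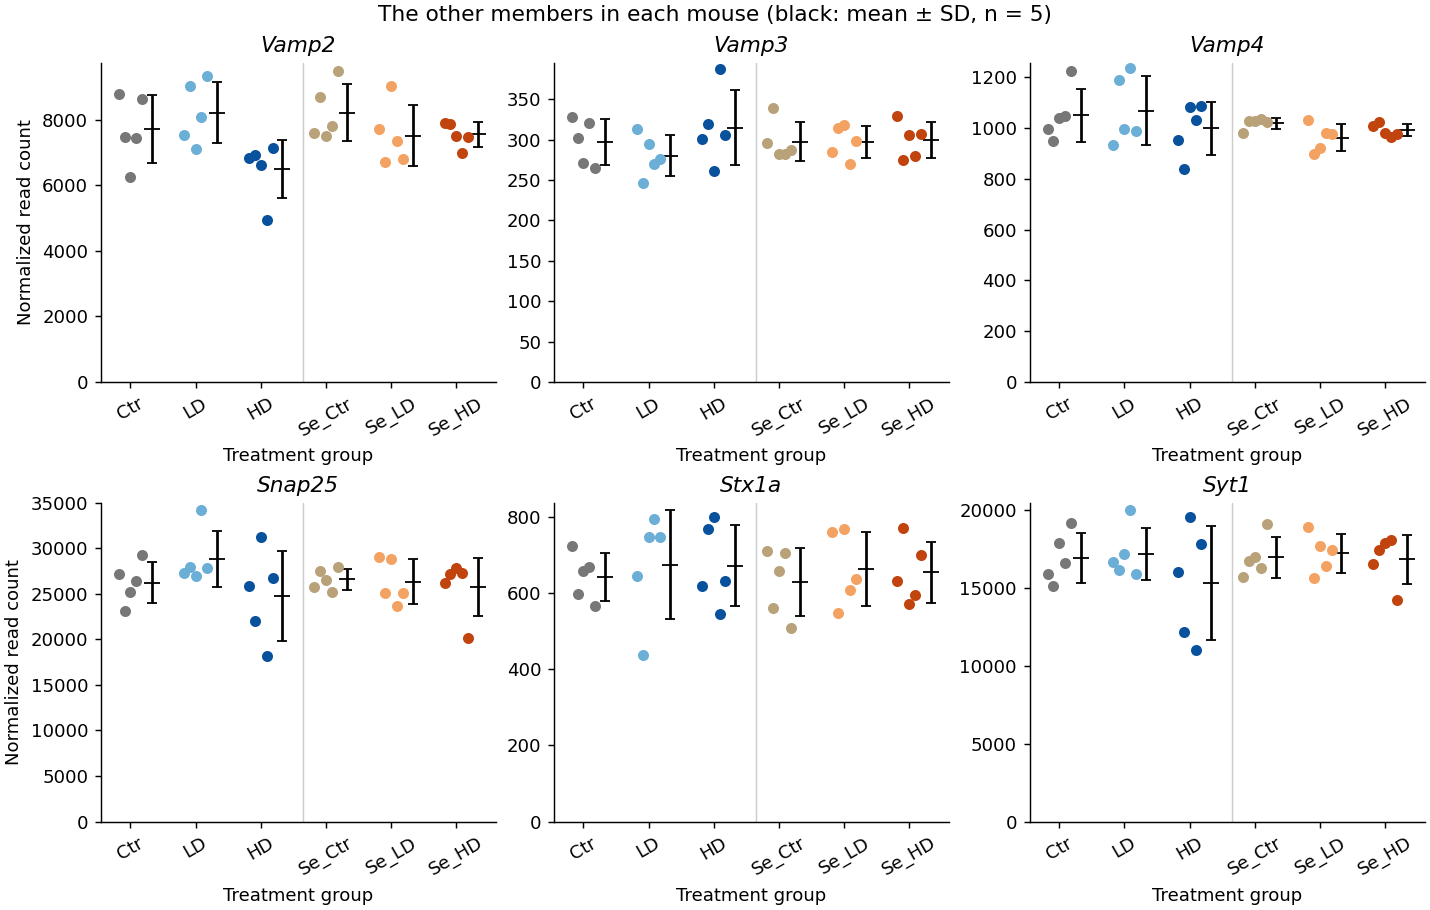
Normalized read count (vertical axes, one scale per gene) of Vamp2, Vamp3, Vamp4, Snap25, Stx1a and Syt1 in each mouse of the 6 treatment groups (horizontal axes), with each point 1 mouse and the black bar the mean ± SD of 5 mice. HD and Ctr mice overlap in every panel, as do Se_HD and Se_Ctr mice, and HD library 21 is the lowest of the HD mice for Vamp2 (4942), Snap25 (18178), Stx1a (544) and Syt1 (11009).

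Of the calcium sensors, Syt1, the fast sensor of forebrain synapses, had 15310 ± 3638 (SD, n = 5) normalized counts in HD and 16928 ± 1596 (SD, n = 5) in Ctr mice, and 16842 ± 1574 (SD, n = 5) in Se_HD against 16947 ± 1307 (SD, n = 5) in Se_Ctr mice. The HD mice ranged from 11009 to 19540 and spanned the Ctr range of 15145 to 19154. Syt2, its faster relative, showed the largest log2 difference of the 8 genes. Syt2 had 657, 405, 303, 583 and 477 normalized counts in Ctr libraries 1, 7, 13, 19 and 25. In HD libraries 3, 9, 15, 21 and 27 it had 204, 168, 371, 120 and 264. Of the HD mice 4 lay below all Ctr mice, and library 15 lay within the Ctr range. The log2 difference was -1.15 (SE 0.24, 95% interval -1.66 to -0.65), a ratio of 0.449. It was -1.03 without library 1 and -0.95 without library 21.

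In the selenium groups Syt2 overlapped between Se_HD (170, 315, 371, 213 and 260.6 normalized counts) and Se_Ctr (319, 224, 379, 390 and 244), with a log2 difference of -0.24 (SE 0.18, 95% interval -0.61 to 0.12, limma adjusted p = 1.0, exact permutation p = 0.349). It was -0.10 without Se_HD library 6 and -0.38 without Se_HD library 18. The difference between the diets in this contrast was 0.91 (SE 0.32, 95% interval 0.25 to 1.57). It contains the HD contrast that chose Vamp1, with which Syt2 was taken, and is given as a description. The control mice had means of 311 ± 75.8 (SD, n = 5) in Se_Ctr and 485 ± 140 (SD, n = 5) in Ctr, and these groups overlapped. That log2 difference was -0.62 (SE 0.23, unadjusted limma p = 0.0103, adjusted p = 1.0, exact permutation p = 0.0556), which did not pass and uses the same Ctr mice as the HD contrast. In LD mice Syt2 had 364 ± 71.8 (SD, n = 5), a log2 difference from Ctr of -0.39 (SE 0.24, limma adjusted p = 0.999, exact permutation p = 0.119). In Se_LD mice it had 390 ± 42.0 (SD, n = 5), a difference from Se_Ctr of 0.35 (SE 0.18, limma adjusted p = 1.0, exact permutation p = 0.0794). Syt2 was thus above its control at the low dose with selenium and below it in the other 3 mercury contrasts, and none of the 3 that were tested passed.

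**Figure D3:**
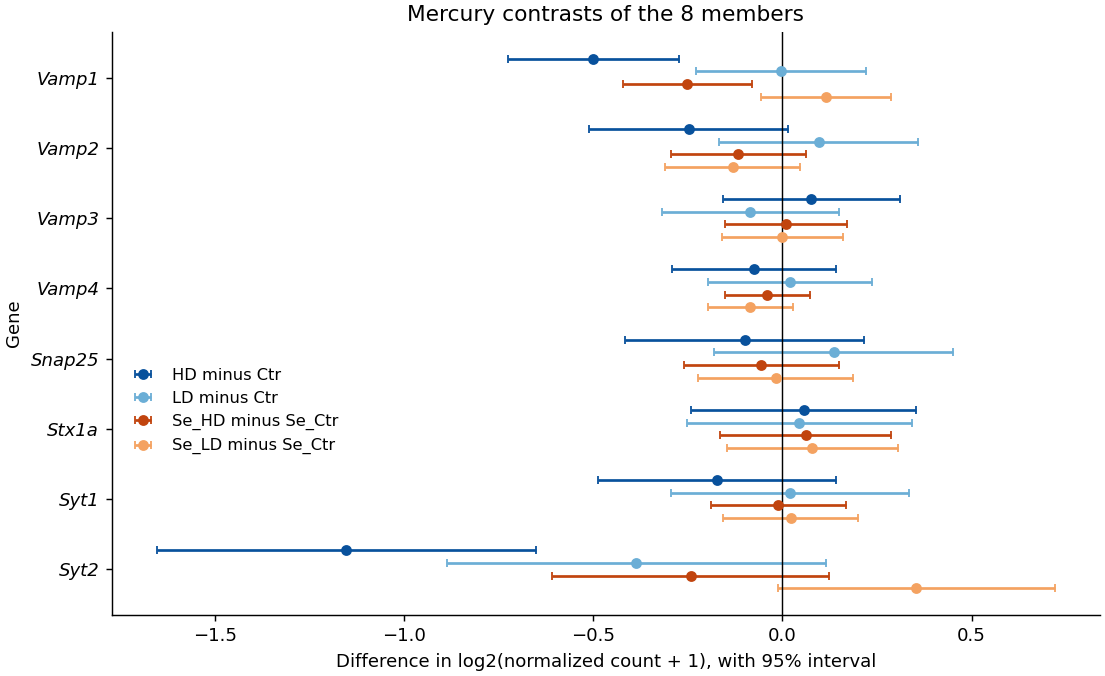
Difference in log2(normalized count + 1) (horizontal axis) of each of the 8 genes (vertical axis) in the 4 mercury contrasts, with points the limma estimates and bars their 95% intervals. In HD minus Ctr, the contrast that chose Vamp1, Syt2 (-1.15) and Vamp1 (-0.50) lie farthest left, and in Se_HD minus Se_Ctr Vamp1 is at -0.25 and Syt2, with a wider bar, at -0.24.

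Cell type markers were read beside these values. Of all genes, 8.34% had an unadjusted limma p under 0.05 in HD against Ctr mice and 4.19% in Se_HD against Se_Ctr mice. Of 7 parvalbumin interneuron markers, 2 were lower in HD than in Ctr mice at an unadjusted limma p under 0.05, Pvalb (-0.59, SE 0.22, adjusted p = 0.414) and Erbb4 (-0.36, SE 0.165, adjusted p = 0.566). The calcium buffer gene Pvalb had 181, 267, 456, 151 and 273 normalized counts in HD libraries 3, 9, 15, 21 and 27. Library 15 was thus the highest HD mouse for Pvalb as it was for Syt2, and library 21 the lowest for both. The list's sum was 2715 to 4217 in HD and 4102 to 5030 in Ctr mice, and no marker of the list was at 0 in either group. In Se_HD against Se_Ctr mice, 0 of the 7 had an unadjusted limma p under 0.05, the sums were 3708 to 4623 and 4159 to 4743, and Pvalb had -0.22 (SE 0.12, unadjusted p = 0.0842). The potassium channels Kcnc1 and Kcnc2 of the same list had -0.29 and -0.24 in HD and -0.12 and -0.01 in Se_HD mice. Erbb4 (691 against 644 normalized counts) and Tac1 (55.8 against 52.4) had higher means in Se_HD than in Se_Ctr mice. Over the 7 markers the Se_HD differences had a median of -0.02 and ran from -0.32 to 0.28. Lhx6, Tac1 and Cox6a2 had -0.24, 0.01 and -0.35 in HD mice. Cox6a2 was close to the floor, with means of 7.81 ± 4.30 (SD) normalized counts in HD and 10.6 ± 5.37 (SD) in Ctr mice.

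Of 5 GABAergic neuron markers, Gad1 alone had an unadjusted limma p under 0.05 in HD mice (-0.46, SE 0.10, adjusted p = 0.0695), with Gad2, Slc32a1, Dlx1 and Dlx6 between -0.51 and -0.09. In Se_HD mice the 5 lay between -0.09 and 0.18, and 0 had an unadjusted p under 0.05. Microglia markers were higher in HD mice for 8 of 8 genes at an unadjusted limma p under 0.05, with sums of 3069 to 6638 against 2426 to 2658 in Ctr mice, and in Se_HD mice for 0 of 8, with sums of 2545 to 2954. Astrocyte markers were higher in HD mice for 2 of 6 genes at that level (Aqp4 with 0.97 and Aldh1l1 with 0.49) and in Se_HD mice for 1 of 6 (Gjb6 with 0.35). Striatum markers were higher in HD mice for 2 of 7 genes (Penk with 1.00 and Ppp1r1b with 0.43) and in Se_HD mice for 0 of 7. Thalamus markers had a median log2 difference of -0.05 in HD mice (-0.61 to 0.22 over 7 genes). In Se_HD mice it was -0.085, and all 7 were negative (-0.74 to -0.03). Of the thalamus markers, 0 had an unadjusted limma p under 0.05 in HD or Se_HD mice. Choroid plexus markers were positive for 8 of 8 genes in both diets, with medians of 1.19 in HD and 0.73 in Se_HD mice. Of these, 1 in HD (Folr1) and 0 in Se_HD mice had an unadjusted limma p under 0.05. Their sums varied widely within groups, from 2309 to 42440 in Ctr, 9691 to 43339 in HD, 10468 to 29781 in Se_Ctr and 13913 to 51708 in Se_HD mice. The markers outside the parvalbumin, GABAergic and thalamus lists were named after their values were seen. The part of these cell types in the HD and Se_HD values of Vamp1 and Syt2 was not tested.

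Across mice, Vamp1 and Syt2 varied together within the groups. The log2 deviations from the group means were compared between Vamp1 and each of the 7 other members over the 30 mice, with 100000 permutations within groups. For Syt2 Pearson's r was 0.60 (permutation p = 0.00027, adjusted p = 0.00189 over the 7 pairs) and Spearman's rho 0.58 (permutation p = 0.00051, adjusted p = 0.00357). Without the 2 mice farthest from the median of Vamp1, Ctr library 1 and Se_LD library 23, r was 0.59. Between Vamp1 and Vamp2 r was 0.35 and rho 0.23 (permutation p = 0.113 and 0.275), and between Vamp1 and Snap25 r was 0.26 and rho 0.17 (permutation p = 0.212 and 0.437). For Syt1, Stx1a, Vamp3 and Vamp4 r lay between -0.09 and 0.17 (for Vamp3 -0.07, and -0.36 without the 2 mice), and no pair but that with Syt2 had an adjusted p under 0.05. With sets of 6 consecutive library numbers as a covariate and with quantile normalization, r between Vamp1 and Syt2 lay between 0.55 and 0.68.

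**Figure D4:**
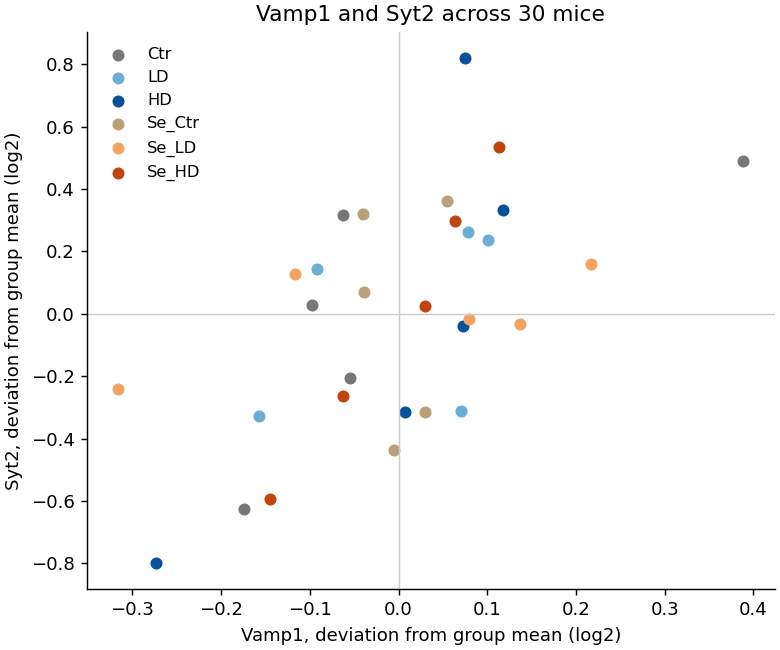
Deviation of each of 30 mice from its group mean in log2(normalized count + 1), for Vamp1 (horizontal axis) and Syt2 (vertical axis), coloured by treatment group. The points run from lower left to upper right (r = 0.60), with HD library 21 at the lower left end and Ctr library 1 farthest right.

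Among 14295 other genes, each averaging 10 normalized counts or more, those whose deviations were most like those of Vamp1 over the 30 mice were Rims3 (r = 0.69), Gm447 (0.69), Scn4b (0.69), Slc46a1 (0.68) and Map4k2 (0.68). These are descriptions over mice that share tissue dissection and depth differences, and no p is given. Rims3 belongs to the active zone, the site of vesicle docking, and Scn4b is a beta subunit of sodium channels. The complexin gene Cplx1 was rank 13 (r = 0.63), Syt2 rank 26 and Pvalb rank 174 (r = 0.50), and these 3 were looked up because of their roles.

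The other release genes were read from a list of 64 in the table, in 6 roles. In HD against Ctr mice 0 of the 64 passed limma's adjusted p over all genes, where 26 genes (0.13%) passed, and 5 of the 64 had an unadjusted p under 0.05 (7.81%, against 8.34% of all genes). The median log2 difference of the 64 was -0.02, beside 0.01 over all genes tested, and 27 were positive and 37 negative. In Se_HD mice 1 of the 64 (1.56%, against 4.19% of all genes) had an unadjusted p under 0.05, the endosomal SNARE gene Vti1a with -0.21, with a median of -0.03 (19 positive, 45 negative) beside -0.01 over all genes. In LD mice it was 1 of 64 (1.56%, against 3.01%), Syt13 with 0.22, and the median was 0.04. In Se_LD mice it was 5 of 64 (7.81%, against 3.31%), 4 higher and 1 lower, with a median of -0.01. In these 4 contrasts 0 of 64 passed adjustment in limma, edgeR or DESeq2.

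Within the active zone genes, Rims3, a short relative of the RIM scaffolds, had the lowest value of the list in HD mice (log2 difference -0.62, SE 0.18, limma, unadjusted p = 0.00274, adjusted p = 0.21). It had 473, 615, 620, 359 and 489 normalized counts in HD libraries 3, 9, 15, 21 and 27 and 1210, 632, 633, 876 and 645 in Ctr libraries 1, 7, 13, 19 and 25. The highest HD mouse (620) was just under the lowest Ctr mouse (632), and libraries 1 and 21 were again the extremes. In Se_LD mice Rims3 was higher than in Se_Ctr mice (0.46, SE 0.16, unadjusted p = 0.00754, adjusted p = 1.0). The highest Se_LD mice for Rims3 were libraries 29 (1115) and 11 (948), the 2 with high thalamus markers, and the other 3 had 633 to 740. Rph3a, a Rab3 effector on vesicles, had -0.24 in HD mice (unadjusted p = 0.02), and the other 12 of 14 active zone genes had no unadjusted p under 0.05.

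Among the priming factors and SNARE regulators, Unc13c, a Munc13 priming factor, had -0.49 (SE 0.27, unadjusted p = 0.082) in HD mice and Cadps2, a priming factor of dense-core vesicles, -0.37 (SE 0.15, unadjusted p = 0.0193, adjusted p = 0.46). Cplx1, the complexin that clamps and triggers fusion, had 3142, 2952, 3925, 2137 and 3506 normalized counts in HD libraries 3, 9, 15, 21 and 27 and 3275 to 4360 in Ctr mice, a log2 difference of -0.31 (SE 0.13, unadjusted p = 0.029). The groups overlapped, with library 15 the highest and library 21 the lowest HD mouse, as for Syt2. Cplx1 and Rph3a were named after their values were seen. In Se_HD mice the lowest 3 of the whole list were Sv2c of the vesicle membrane (-0.70, SE 0.46), the retinal-type complexin Cplx3 (-0.36, SE 0.40) and the calcium-binding Doc2a (-0.31, SE 0.20), with unadjusted p of 0.139, 0.39 and 0.134.

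At the other end of the list, Vamp8, an endosomal and granule SNARE that is also found in immune cells, had the highest value in HD mice (0.77, SE 0.22, limma, unadjusted p = 0.00252, adjusted p = 0.202). It had 134, 139, 191, 171 and 126 normalized counts in HD mice against 78.5, 121, 88.5, 125 and 49.6 in Ctr mice. The lowest HD mouse (125.6) was only just above the highest Ctr mouse (124.7), and the share of all genes with such a pattern was not counted. In Se_HD mice Vamp8 had 0.42 (SE 0.21, unadjusted p = 0.0632), again the highest of the list. Next in HD mice came Syt10 (0.32, SE 0.26) and Syt17 (0.18, SE 0.18), and in Se_HD mice Syt9 (0.40, SE 0.41) and Syt6 (0.19, SE 0.14), all synaptotagmins. The vesicle membrane genes (12 genes, -0.25 to 0.18) and the SNARE disassembly genes (4 genes, -0.12 to 0.04) had 0 unadjusted p under 0.05 in HD mice.

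**Figure D5:**
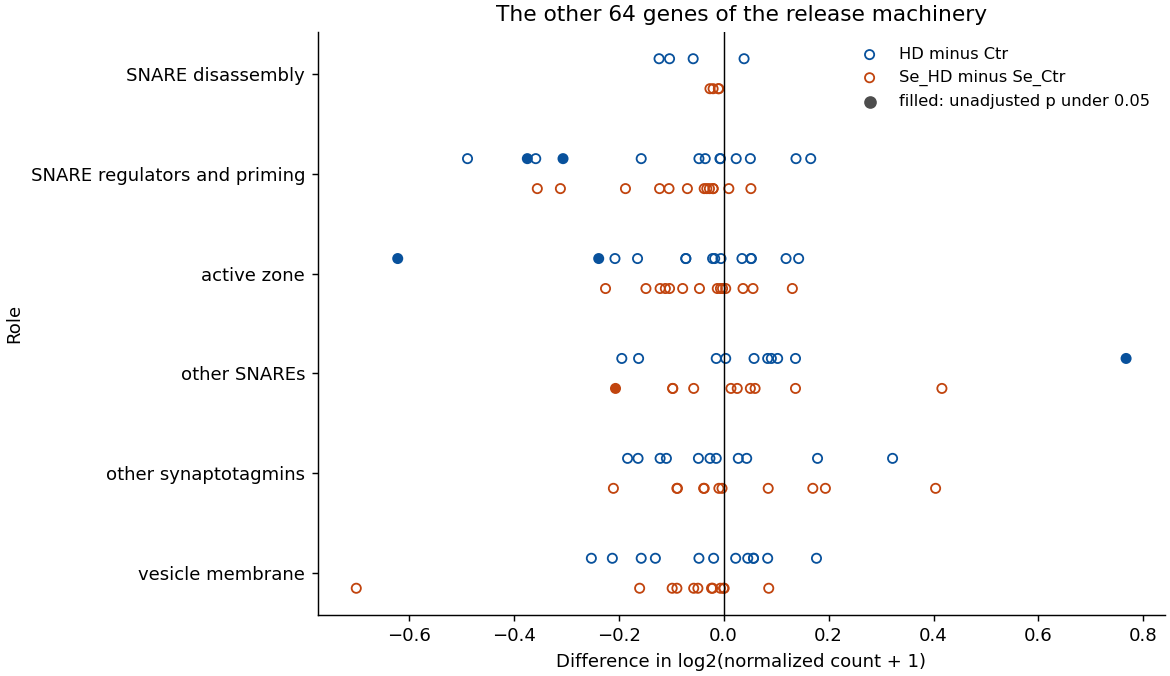
Difference in log2(normalized count + 1) (horizontal axis) of 64 other genes of the release machinery by role (vertical axis), with each point 1 gene, HD minus Ctr in blue and Se_HD minus Se_Ctr in red, and filled points at an unadjusted limma p under 0.05. Most points lie near 0, with medians of -0.02 and -0.03, and Rims3 (-0.62) and Vamp8 (0.77) lie farthest out in HD mice.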

How the data were processed

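The authors trimmed single-end reads of stranded mRNA libraries with Trim Galore 0.4.2, mapped them to NCBIM37 with HISAT2 and assigned them to genes with featureCounts. The deposited signal values are the authors' read counts divided by DESeq2 size factors, for 21412 genes. All values (100%) were within 0.05 of a whole read once multiplied by the library's factor, so reads were recovered, and 0 columns were left unmapped.

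log2(normalized count + 1) was fitted with limma 3.58.1 (R 4.3.3, variance trend, a coefficient for each group) in the 15 libraries of a diet, for genes with a sum of at least 10, and over all 30 libraries for Se_Ctr against Ctr and the difference between diets. The p-values were adjusted by Benjamini-Hochberg over all genes tested. On the recovered reads edgeR 4.0.16 called 45 genes and DESeq2 1.42.0 called 197 in HD against Ctr, beside 26 in limma. Single genes were compared with exact two-sided permutation tests. Mice were housed individually in the Ctr, LD and HD experiment, and each library is of 1 RNA sample. Symbols, positions and exons came from the annotation of the same build. Whether counting used strand is not given in the sources used here.

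Named are the 8 genes, any other release gene with an adjusted p under 0.05, the 3 highest and 3 lowest of these (mean of at least 10) at the high dose in each diet, the parvalbumin, GABAergic and thalamus markers, and the 5 genes most like Vamp1. The members and lists were chosen with earlier results of these data known. Alternatives were the pseudocount, filter, normalization, trend, samples in the fit, library set, count tests and leaving out each mouse. Protein data were not analysed here. A further GABAergic marker is not reported here. Vamp7 and the thalamus marker Ntng1, which has 2 identifiers, were not used here.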

Additional observations from a re-analysis of the deposited data

Results flagged for a closer look

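In 6 of the 48 groups of 5 mice (8 genes in 6 groups), 1 mouse stood apart by Dixon's ratio, the gap to the nearest mouse over the group's range, with a critical value of 0.71. Chance gives about 1 in 20 groups, or 2.4 of 48. Vamp1 in Ctr library 1 had a ratio of 0.819, with 1738 normalized counts against 1176 to 1277 in the other Ctr mice. Vamp2 in HD library 21 had 0.768 (4942 against 6631 to 7141). Vamp3 in Se_Ctr library 10 had 0.763 (339 against 282 to 295), and Vamp4 in Se_Ctr library 4 had 0.767 (981 against 1023 to 1036). Snap25 in LD library 20 had 0.87 (34214 against 26957 to 27902), and Snap25 in Se_HD library 30 had 0.79 (20125 against 26244 to 27869).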

How the results depend on the processing

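The Vamp1 difference in HD against Ctr lay between -0.511 and -0.493 over 10 other settings and between -0.543 and -0.402 with each mouse left out. The filters, the fit without trend, the library set and the fit of all 30 libraries cannot change a fitted group difference. Only the pseudocount, the normalization, the count tests and mice left out could move it. In Se_HD against Se_Ctr the Vamp1 difference lay between -0.252 and -0.239 and between -0.28 and -0.215, with adjusted p between 0.929 and 1.0. Its sign held in the settings that could move it, and adjustment was not passed in any setting. In LD against Ctr it changed sign with single mice left out (-0.047 to 0.094). In Se_LD against Se_Ctr it was 0.062 to 0.195, and in Se_Ctr against Ctr -0.145 to -0.004. Likewise Vamp2 was -0.322 to -0.153 in HD, 0.022 to 0.146 in LD, -0.15 to -0.064 in Se_HD and -0.2 to -0.078 in Se_LD. Syt2 was -1.359 to -0.954, -0.543 to -0.265, -0.377 to -0.095 and 0.245 to 0.444 in these 4 contrasts. Under quantile normalization Vamp2 in LD was 0.042.

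Other genes near 0 also changed sign. With each mouse left out, the HD differences ranged from -0.002 to 0.14 for Vamp3, -0.19 to 0.005 for Snap25 and -0.01 to 0.129 for Stx1a. The LD differences ranged from -0.034 to 0.077 for Vamp4, -0.023 to 0.193 for Stx1a and -0.036 to 0.067 for Syt1. Those of Se_HD ranged from -0.025 to 0.058 for Vamp3, -0.087 to 0.031 for Snap25, -0.012 to 0.108 for Stx1a and -0.038 to 0.048 for Syt1. Those of Se_LD ranged from -0.027 to 0.048 for Vamp3, -0.054 to 0.02 for Snap25 and -0.013 to 0.066 for Syt1. Those of Se_Ctr against Ctr ranged from -0.046 to 0.04 for Vamp3, -0.075 to 0.017 for Vamp4, -0.021 to 0.063 for Snap25, -0.085 to 0.034 for Stx1a and -0.041 to 0.049 for Syt1. Under quantile normalization Syt1 had -0.032 in LD, 0.007 in Se_HD and -0.012 in Se_LD, and Vamp3 had 0.0 in Se_LD and -0.001 in Se_Ctr against Ctr. Vamp3 in Se_LD was 0.002 in edgeR and 0.001 in DESeq2. The correlation of Vamp1 with Vamp3 was 0.018 under quantile normalization, and that with Vamp4 was 0.013 with the library set as a covariate. The cause of these changes was not tested.

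The number of the 64 release genes with an unadjusted p under 0.05 moved with single mice. In HD it was 5, and 2 to 8 with each mouse left out (2 without HD library 21, 3 without Ctr library 1, 8 without HD library 15). In LD it was 1, with 0 to 2 so and 2 with all 30 libraries in one fit. In Se_HD it was 1, with 0 to 7 so (0 without library 30, 7 without library 24), 2 with the library set as a covariate, 2 in edgeR and 3 in DESeq2. In Se_LD it was 5, with 1 to 8 so (1 without library 29, 8 without library 17), 3 in limma without trend and 2 with all 30 libraries. The counts of genes below all controls in both diets without Ctr library 1 or HD library 21 were chosen after seeing the data. Over all genes, the 26 called in HD against Ctr became 3 to 76 with each mouse left out (3 without Ctr library 25, 76 without HD library 27), 200 with all 30 libraries in one fit, 11 with a pseudocount of 10 and 0 in limma without trend (1595 unadjusted). The labels do not pair the mice. Sets of 6 consecutive library numbers, each with 1 mouse of every group, served as a block instead. Because every set holds every group, this block cannot change a group difference, so Vamp1 necessarily had the same -0.50 in HD and -0.252 in Se_HD. Only the SE could change. With the block the Se_HD difference did not pass (limma adjusted p = 1.0), and 27 genes were called in HD. The SE of a difference from Ctr was 0.24 for Syt2 and 0.104 for Vamp4, so a difference of a given size was measured less firmly for Syt2.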
